A study of Arabidopsis thaliana with 4 samples.

Results

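The results concern 4 transcription factor genes that act in seed maturation, desiccation tolerance and germination: AGL67, EEL, BZIP53 and SPT. Each was represented by 1 probe set annotated to it alone, so the 4 genes account for 4 of the 22746 probe sets on the Affymetrix ATH1 array, a chip that measures transcripts with sets of short oligonucleotides. All 4 probe sets were among the 13648 brightest ones that entered the statistical fit. AGL67 did so only through its mutant arrays: its WT mean of 8.08 lay below the limit of 9.39 that the mean over the 4 arrays had to reach (log2 scale), whereas the other 3 genes were above it in both genotypes. The genes were proposed with these genotype differences already known, so their differences are given as a description, with no test.

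The samples were dark-grown Arabidopsis thaliana seedlings of the ecotype Columbia. Wild-type seedlings (WT) were set against a double mutant with the alleles phyA-211 and phyB-9, which lacks phytochromes A and B, the main receptors for far-red and red light. Seeds of both genotypes lay on 0.8% agar at 6 °C for 5 days, were lit with white light for 1 h at 22 °C so that they would germinate together, and then grew at 22 °C in the dark for 3 days. Each genotype had 2 arrays, and the summed intensity per array ranged from 76027250 to 77974921. Nothing in the labels says that the 2 arrays of a genotype came from separate cultures, so their spread may be technical.

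During seed maturation a network of transcription factors switches on genes for storage proteins, oil bodies and protective proteins that let the embryo survive drying. Basic leucine zipper (bZIP) proteins bind, as dimers, promoter elements with an ACGT core and pass abscisic acid signals to these genes. At germination this programme is shut down, while gibberellin and light, the latter through phytochromes, promote growth. BZIP53 forms dimers with other bZIP proteins and activates seed maturation genes, and EEL (also DPBF4 or bZIP12) competes with its relative ABI5 for the promoter of the late embryogenesis gene EM1. AGL67 encodes a MADS-box protein linked to the acquisition of desiccation tolerance. SPT (SPATULA) encodes a basic helix-loop-helix (bHLH) protein that acts in germination and also shapes carpels.

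AGL67 and EEL had higher levels on both mutant arrays than on either WT array, whereas BZIP53 and SPT had lower levels on both mutant arrays. The 2 higher genes differed by more than 2-fold and the 2 lower ones by less. Thus the groups did not overlap for any of the 4 genes, although the margin was narrow for SPT. Over all probe sets fitted, the groups did not overlap for 38.3%, with 20.0% higher and 18.3% lower in the mutant. Because the genes were chosen on this contrast, nothing is read from their own count.

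AGL67 (AT1G77950, probe set 262185_at) had intensities of 113 and 328 on WT arrays 1 and 2 and of 9875 and 2858 on mutant arrays 1 and 2. The lower mutant array was 8.71 times the higher WT array, so the separation between genotypes was wider than the spread within either. In the unit used for all differences, log2(intensity + 70.1), the mean was 8.08 ± 0.79 in WT and 12.40 ± 1.25 in the mutant (SD, n = 2 each). The difference was 4.32. The constant of 70.1, the 10th percentile of all intensities, holds down the differences of dim probe sets, and AGL67 was dim in WT. The difference was 4.79 with no constant and 3.42 with the 25th percentile, 323.9, in its place. The deposited values carry no detection calls, so whether the WT level lay above background is not known here, and no fold is given.

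The AGL67 signal was also uneven within each genotype. The WT arrays differed by 1.12 on the log2 scale, in a range where signals are dim. Mutant array 1 was 3.46 times mutant array 2, a log2 gap exceeded by 1.44% of fitted probe sets. Mutant array 1 differed from the WT mean by 5.20, and mutant array 2 did so by 3.44. Both mutant arrays therefore had a high AGL67 level, and its size depended on the array.

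EEL (AT2G41070, probe set 267075_at) had intensities of 1151 and 1437 in WT and of 5301 and 2782 in the mutant. The lower mutant array was 1.94 times the higher WT array. The log2 mean was 10.41 ± 0.21 in WT and 11.93 ± 0.65 in the mutant (SD, n = 2 each), a difference of 1.53, or 2.89-fold. Of all fitted probe sets, 0.938% had a higher difference. The 2 WT arrays were close, and the wider spread lay in the mutant, where array 1 differed from the WT mean by 1.99 and array 2 by 1.07. AGL67 and EEL were thus both higher on mutant array 1 than on mutant array 2.

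Groups without overlap and at least 2-fold higher in the mutant, as for AGL67 and EEL, made up 1.99% of fitted probe sets. The corresponding share of lower probe sets was 0.953%. Neither BZIP53 nor SPT reached 2-fold.

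BZIP53 (AT3G62420, probe set 251237_at) had intensities of 7471 and 7449 in WT and of 5600 and 6202 in the mutant. The WT arrays were nearly equal, and 99.0% of fitted probe sets had a larger gap between them. The log2 mean was 12.54 ± 0.10 in the mutant (SD, n = 2) and 12.88 in WT, where the SD was 0.0029 (n = 2). The difference of -0.34 put the WT mean 1.26-fold above the mutant mean. It was larger than the spread within either genotype, but 18.0% of fitted probe sets had a lower difference. The near equality of 2 WT arrays is no measure of how closely further WT samples would agree.

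SPT (AT4G36930, probe set 246212_at) had intensities of 6549 and 7976 in WT and of 4081 and 6307 in the mutant. Mutant array 2 lay just below WT array 1, which exceeded it 1.04 times. The log2 mean was 12.83 ± 0.20 in WT and 12.33 ± 0.44 in the mutant (SD, n = 2 each), a difference of -0.50. Mutant array 1 was at -0.81 from the WT mean and mutant array 2 at -0.19. The difference was of the size of the spread between the mutant arrays, whose gap was 0.62. Of the fitted probe sets, 8.92% had a lower difference.

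**Figure D1:**
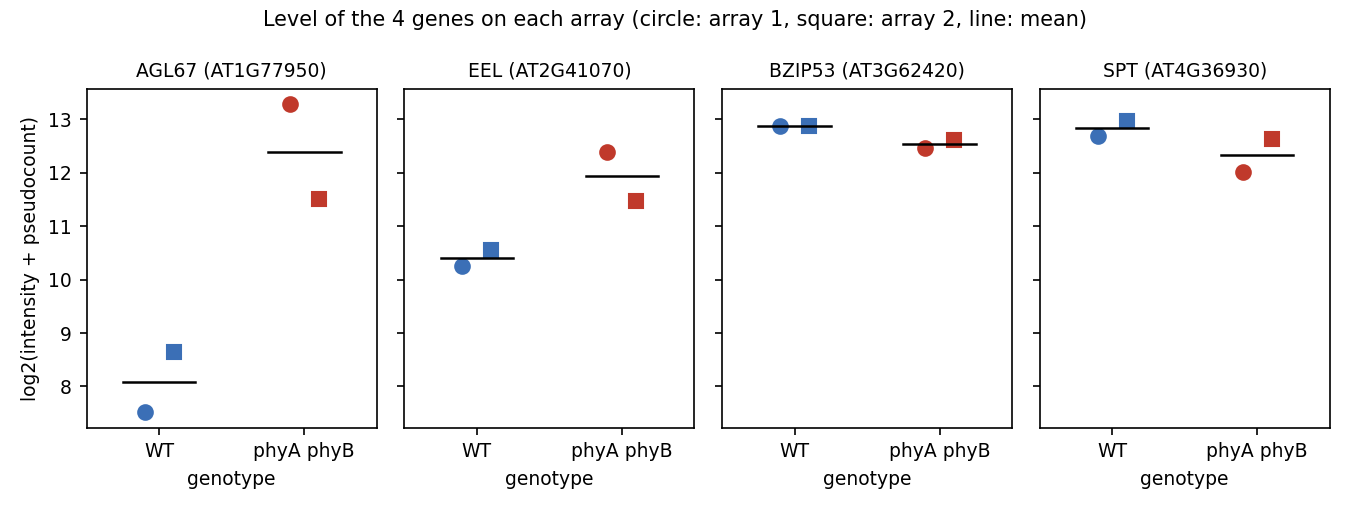
Level of each gene on the 4 arrays, as log2(intensity + 70.1), by genotype. Circles are array 1, squares are array 2, and lines are means of 2 arrays. AGL67 and EEL sit higher in both mutant samples, with means of 12.40 and 11.93 against 8.08 and 10.41 in WT, while BZIP53 and SPT sit slightly lower, at -0.34 and -0.50 from WT.

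**Figure D2:**
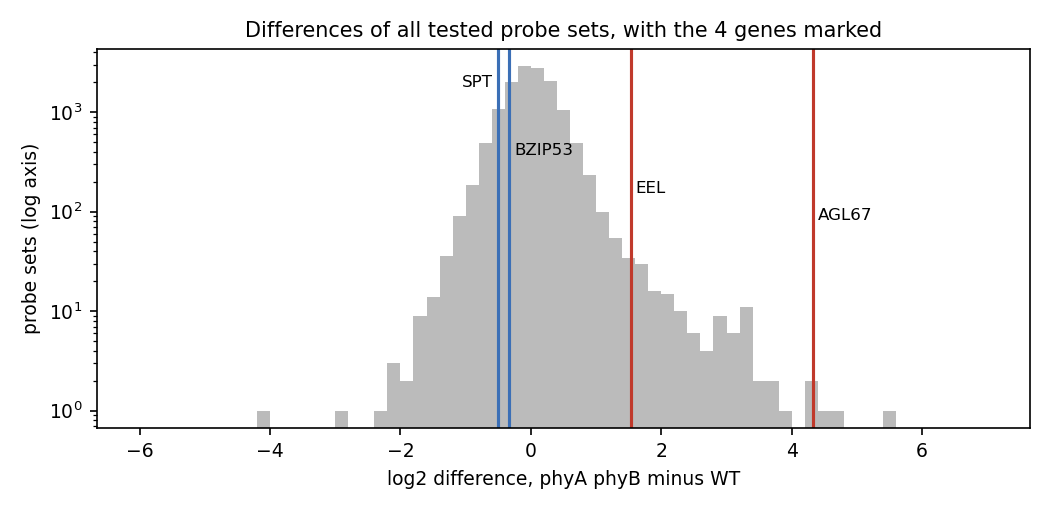
Log2 differences, phyA phyB minus WT, of the 13648 fitted probe sets, as a histogram with a log vertical axis. Vertical lines mark AGL67 at 4.32 and EEL at 1.53 in the upper tail, and BZIP53 at -0.34 and SPT at -0.50 within the main body.

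In all 4 genes, mutant array 1 was farther from the WT mean than mutant array 2. This also held for 61.7% of all fitted probe sets. The median gap between the 2 mutant arrays over fitted probe sets was 0.33 on the log2 scale, against 0.26 between the WT arrays. The gaps of AGL67 (1.76), EEL (0.91) and SPT (0.62) were above that mutant median, and that of BZIP53 (0.15) was below it.

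Genes of seed storage and desiccation are switched on during seed maturation and mark dry-seed RNA. They were high on the same arrays as AGL67 and EEL. Of 30 genes listed, 14 had a named probe set, and all 14 entered the fit. Their summed intensity was 52273 and 51903 on the WT arrays, then 466373 for the first mutant array and 166910 for the second, and none was listed at 0. The median difference was 2.45 (3.31 for the first and 1.81 for the second mutant array), against a median of 0.0038 over all fitted probe sets. The part of seed RNA in the levels of AGL67 and EEL was not tested. In whole seedlings, more cells with a transcript and more transcript per cell cannot be told apart.

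Of these 14 genes, 3 rose and 0 fell in the mutant at an adjusted p of 0.05 in limma, where 0.0879% of all fitted probe sets rose and 0.00733% fell. The list was chosen with earlier results of these data known, so its count is not independent evidence. M17, for a late embryogenesis abundant (LEA) protein, differed by 3.74 (SE 0.46, adjusted p = 0.0276, limma). PAP85, for a vicilin-like storage protein, differed by 3.29 (SE 0.38, adjusted p = 0.0237, limma), and AT3G54940 by 2.66 (SE 0.34, adjusted p = 0.0277, limma). The cupin gene AT2G28490, at 3.33, did not pass (adjusted p = 0.084, limma). The lowest differences were 1.06 for AT1G03890 and 0.23 for the oleosin gene OLEO3, neither past the threshold. The count of 3 was 0 without WT array 1, 1 without WT array 2, 6 without mutant array 1 and 12 without mutant array 2. All 3 calls also ended when dim probe sets were kept in (adjusted p = 0.0528 for each, limma) and without the intensity trend (adjusted p = 0.382 for each, limma).

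**Figure D3:**
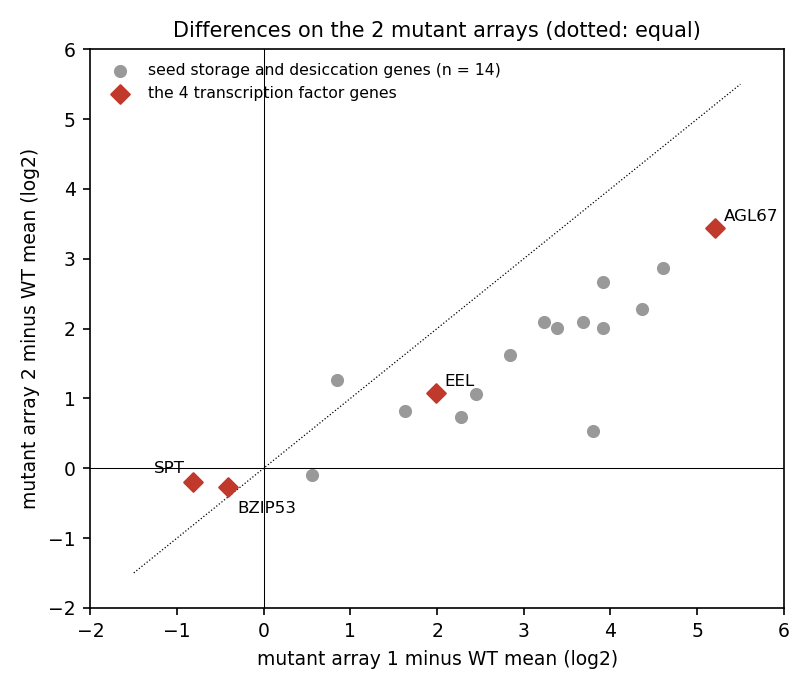
Difference from the WT mean on mutant array 1 (horizontal, log2) and mutant array 2 (vertical, log2) for the 4 transcription factor genes (diamonds) and 14 seed storage and desiccation genes (circles). The dotted line marks equal differences. AGL67 lies at 5.20 and 3.44 and EEL at 1.99 and 1.07, both below the line, as do 13 of the 14 seed genes.

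The other regulators of the pathway were thinly covered by named probe sets. Of 108 genes in 8 lists of regulators of maturation, bZIP and MADS relatives, SPT relatives with the phytochrome-interacting factors, germination regulators, and gibberellin and abscisic acid metabolism and signalling, 11 had a named probe set and 5 entered the fit. None of the 5 passed in limma, and 0 had an unadjusted p under 0.05, against 0.0953% and 7.24% of all fitted probe sets. These counts describe 5 genes and not the pathway.

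Each of the 5 is given by its values. AGL18, a MADS-box gene that acts in embryogenesis and flowering, differed by 0.34, and its groups overlapped. AT1G21000, a PLATZ-type zinc-binding protein gene, differed by -0.40, with 9189 and 11540 in WT and 8662 and 6956 in the mutant. bZIP44, a close relative of BZIP53, differed by -0.04, with WT intensities of 3808 and 1919 that enclosed both mutant values. ALC, the bHLH gene nearest in kind to SPT and required for fruit opening, differed by 0.66, with 613 and 523 in WT and 842 and 1040 in the mutant. TCP15, a growth regulator that promotes germination together with its relative TCP14, differed by -0.21. Its intensities were 4428 and 4970 in WT and 4241 and 3862 in the mutant, without overlap. ALC and SPT thus had mean differences of opposite sign, a contrast that was not tested.

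A single gene of the list of bZIP target genes had a named probe set. It was AT3G15670, a LEA gene that is also in the seed list, and it differed by 1.22 (SE 0.28, adjusted p = 0.26, limma). Its intensities were 10000 and 9306 in WT and 29990 and 17029 in the mutant, so both mutant arrays lay above both WT arrays.

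The closest relatives of AGL67, the MIKC* class of MADS-box genes known mainly from pollen, were all dim and outside the fit. AGL66, which lies 2 protein-coding genes away from AGL67 on the same chromosome, differed by -0.02, with 302 and 829 in WT and 479 and 525 in the mutant. AGL94 differed by 0.08 and AGL30 by -0.48, both with overlap. AGL104 differed by -1.23, with 259 and 302 in WT and 95.4 and 64.3 in the mutant. AGL65, at 1.07, had WT intensities of 134 and 677 and mutant intensities of 689 and 811. AGL65 and AGL104 therefore differed in opposite directions at low intensity, and none of the 5 came near the AGL67 difference.

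Genes with bZIP or bHLH in their symbol were compared as families, which does not pick the genes closest to EEL or SPT. This choice was made after values were seen. Among the 13 bZIP-named probe sets other than BZIP53, the differences ran from -1.08 to 0.07 with a median of -0.10. EEL at 1.53 lay above this range and BZIP53 inside it. Of the 13, 7 entered the fit, and these ran from -0.41 to 0.05. Of 8 listed bZIP relatives in group A, 0 had a named probe set, so this range says nothing about them. BZIP61, at -0.41, and BZIP60, which acts in the response to misfolded proteins, at -0.20, were the other fitted bZIP-named probe sets without overlap. The 5 bHLH-named probe sets ran from -0.15 to 0.41, and SPT at -0.50 lay below them. The 4 of them that entered the fit ran from -0.12 to 0.41. They were matched by symbol and not by closeness to SPT. ALC, the gene nearest in kind to SPT, was not among them and differed by 0.66.

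**Figure D4:**
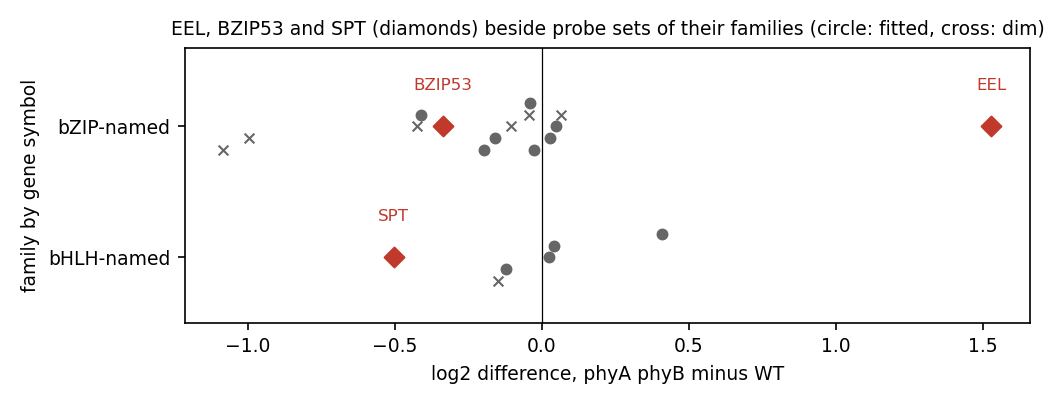
Log2 difference, phyA phyB minus WT, for probe sets of 2 families picked by gene symbol (rows). Circles entered the fit and crosses were too dim for it. EEL and SPT are placed with the family of their protein. EEL at 1.53 stands right of the other bZIP-named probe sets, whose highest is 0.07, and SPT at -0.50 left of the bHLH-named ones, whose lowest is -0.15. Both of these ends are crosses, and the symbol match does not pick the closest relatives of EEL or SPT.

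Named genes next to AGL67 did not share its difference. Within 5 protein-coding genes on either side of AGL67, 5 had a named probe set, and their differences ran from -1.12 to 0.53. The immediate neighbours AT1G77940 and AT1G77960 differed by 0.29 and 0.31, both with overlap. Around EEL, 6 neighbours ran from -0.72 to 0.95, with 0.39 for AT2G41060 on one side and 0.95 for AT2G41080 on the other. AT2G41080 was dim and outside the fit, with 84.6 and 96.8 in WT and 24.1 and 948 in the mutant, so its groups overlapped. The end at -0.72 was also outside the fit, without overlap. AT2G41090, 3 genes from EEL, entered the fit and differed by 0.88. It had 772 and 641 in WT and 1235 and 1484 in the mutant, so its groups did not overlap. Around BZIP53, 5 ran from -0.20 to 0.90, and around SPT, 2 were at 0.87 and -0.25. The ends at -1.12 near AGL67 and 0.90 near BZIP53 came from dim probe sets outside the fit, both with overlap. The groups did not overlap for 1 of 5 neighbours of AGL67, 4 of 6 of EEL, 1 of 5 of BZIP53 and 2 of 2 of SPT. Over all fitted probe sets this share was 38.3%, whereas some of these neighbours were outside the fit. These neighbours were likewise looked up after values were seen.

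The genes most like each of the 4 in pattern were found by the root mean square difference between log2 values over the 4 arrays, after each gene was centred on its own mean. The search covered 7303 other fitted probe sets whose single gene RefSeq matched. With 4 arrays this measure is a description, and all genes share the same arrays. For AGL67 the 3 nearest were M17 (0.43), PAP85 (0.58) and AT2G28490 (0.62), all in the seed list, and only M17 lay within 0.5. AGL67 was below these 3 genes on WT array 1, the array with its lowest value. The measure is not scaled, so only genes with similarly large differences could lie near AGL67. Its own difference was number 4 from the highest of all fitted probe sets. The seed list was chosen with earlier results known, so its match to AGL67 is not independent evidence.

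EEL had 249 genes within 0.5. The nearest were AT1G29680 (0.11), AT3G19920 (0.11) and AT5G35170 (0.12), with differences of 1.49, 1.76 and 1.43. Each was highest on mutant array 1 and next highest on mutant array 2, like EEL. The root mean square difference between AGL67 and EEL was 1.46, because AGL67 differed far more.

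BZIP53 and SPT had small ranges, and many genes resembled them. Within 0.5 lay 6118 genes for BZIP53 and 4899 for SPT. The nearest to BZIP53 was AT5G44320 (0.010), followed by AT2G05790 (0.014) and AT1G79870 (0.016), with differences of -0.35, -0.35 and -0.31. The nearest to SPT were AT4G26470 (0.019), AT5G38310 (0.021) and AT3G51440 (0.023), with differences of -0.48, -0.52 and -0.48. BZIP53 and SPT were closer to each other, at 0.21, than any other pair of the 4. Such a distance was common, because 2586 genes lay within 0.25 of BZIP53 and 1154 within 0.25 of SPT.

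**Figure D5:**
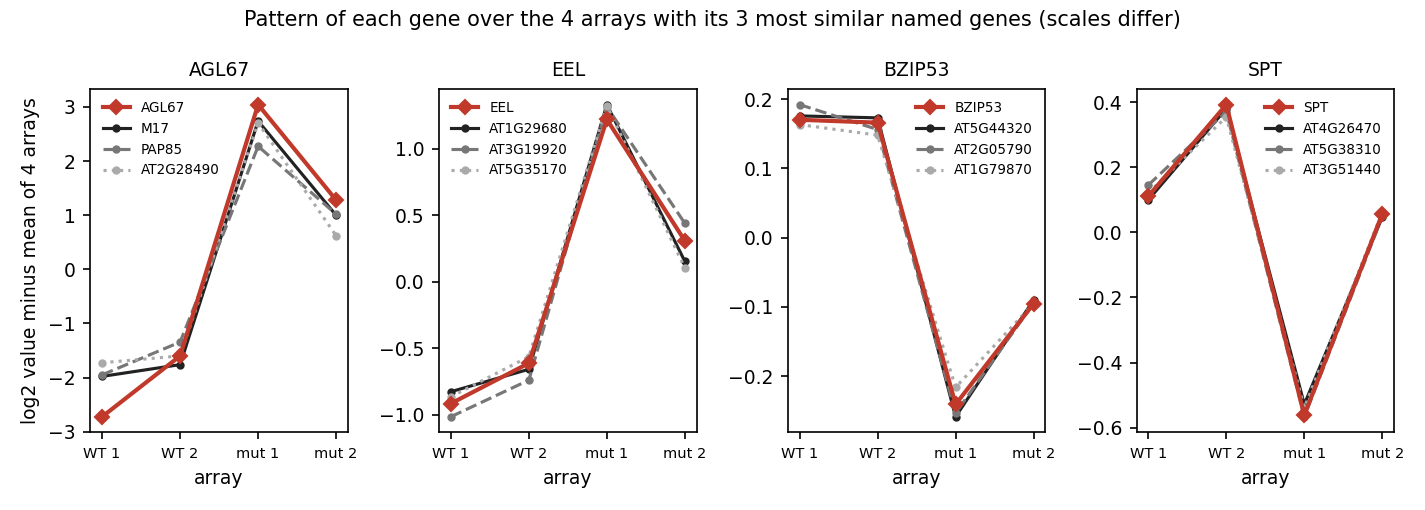
Log2 value on each array minus the mean of the 4 arrays, for each gene (red diamonds) and its 3 most similar named genes (grey and black). Lines only join points of one gene, and the vertical scales differ between panels. AGL67, with M17, PAP85 and AT2G28490, and EEL peak on mutant array 1, while BZIP53 and SPT are lowest there.

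The genotype labels could not be checked here, and the tissue labels could be checked only in part. The annotation used here gave no probe set the name PHYA or PHYB, so the mutated genes were not analysed here. Of 16 seedling marker genes listed, 1 had a named probe set, the root hair expansin gene EXPA7. It had intensities of 984 and 796 in WT and of 93.0 and 927 in the mutant, so mutant array 1 alone was low. On the log2 scale its WT mean was 9.90 and mutant array 2 was at 9.96, both above the limit of 9.39. Mutant array 1, at 7.35, took the mean over the 4 arrays below that limit, so EXPA7 was not fitted. Its part in the results above was not tested.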

How the data were processed

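The deposited values were intensities on a linear scale, 1 per probe set and array, already scaled by the authors: their trimmed means differed by 0.0946% between arrays. RNA was purified with an RNeasy kit, per the labels' protocols. The software, scaling target and detection calls are not given in the sources used here. For 1 WT array the label carries no replicate number, and it is called array 1 here.

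Values were transformed as log2(intensity + 70.1), and differences that involve low values are understated. The brightest 60% of probe sets by mean log2 value, 13648, were fitted with limma 3.58.1 (R 4.3.3; lmFit, eBayes with an intensity trend), with Benjamini-Hochberg adjustment over all of them at 0.05. With 2 residual degrees of freedom, the fit reached 9.20 in total. An exact two-sided permutation of 2 against 2 arrays cannot go below 0.333. The number of arrays limits the precision. The procedure was also run on simulated data with independent noise. No effect shared across an array was simulated, so that run cannot vouch for the fit on these arrays.

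Names came from the platform's annotation, updated through RefSeq (TAIR10.1): 13513 probe sets had 1 gene, 503 several, 8730 were not listed, and RefSeq matched 13436. No coordinates are given, because no build was stated for the files. The members and lists were chosen with earlier results of these data known. From each list the 2 highest and 2 lowest fitted genes and those past the threshold are named, or all where 4 or fewer were fitted, together with the 3 genes most like each of the 4. Relatives and chromosome neighbours were added after values were seen. Alternatives were other pseudocounts, quantile and median normalization, no filter, no trend, and leaving out each array. Plots used matplotlib 3.10.9.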

Additional observations from a re-analysis of the deposited data

How the results depend on the processing

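The 4 genes kept the sign of their difference in all 32 alternatives run for them (8 each). Under the other pseudocounts and normalizations each value moved by less than 1 pooled SD between replicates. AGL67 was at 4.79 without a pseudocount and at 3.42 with it at the 25th percentile of intensities. With arrays left out, AGL67 ran from 3.44 to 5.20, EEL from 1.07 to 1.99, BZIP53 from -0.41 to -0.26 and SPT from -0.81 to -0.19. The count of list genes past the threshold, 3, was 0 with dim probe sets kept in and 0 when eBayes used no trend (limma; 12 and 13 at an unadjusted p under 0.05), and ran from 0 to 12 with arrays left out. The count over all probe sets, 13, was 3 without the filter, 1 without the trend, and from 6 to 422 with arrays left out, where a group of 1 array takes its spread from the other group. Without the filter more probe sets were tested, and for the rest the cause was not tested. Over 12 named list genes, 11 of 120 values lost a call, 3 gained one, 0 called values reversed, and 106 stayed on the same side of the adjusted p of 0.05. Differences that had not passed changed sign 4 times, for bZIP44 and OLEO3 with arrays left out. Only M17, PAP85 and AT3G54940 could lose a call. No paired analysis was possible because the labels give the genotypes fewer than 2 replicate numbers in common. No signal over background was given, so dim levels such as that of AGL67 in WT are uncertain.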
